A study of Mus musculus with 6 samples.

Results

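The 10 genes described here encode NRF2 (Nfe2l2), NF-E2 (Nfe2), their relative NRF1 (Nfe2l1) and the proteins that restrain or pair with them, namely Keap1, Cul3, Bach1, Mafg, Mafk, Maff and Sqstm1. A peak of open chromatin was assigned to a gene when its summit lay in the gene body or within 3000 bp of an annotated transcription start, and overlapping peaks of different libraries were joined into regions. All 10 genes held at least 1 peak, and together they held 28 of the 62876 regions in the series. Of these 28 regions, 17 had a peak in all 6 libraries and could be tested, 8 had a peak in 2 to 5 libraries and 3 in a single library.

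The assay was ATAC-seq, which reads open chromatin from the places where Tn5 transposase can cut and tag the DNA, and the cells were white blood cells of male C57BL/6j mice bought at 8 weeks of age. The 3 HADA (high-altitude de-acclimatization) libraries came from mice kept for 28 days in a hypobaric chamber simulating 6000 m and then returned to normal oxygen. The 3 control libraries came from mice kept in normal oxygen throughout. All 6 libraries held unsorted leukocytes left after lysis of red cells. The day of blood sampling for this assay is not stated in the sources used here. The sources call the cells leukocytes in the methods and labels but mononuclear cells in the results. The labels number the libraries of a group without saying that each is a separate mouse, so p-values measure the spread between these libraries, which may in part be technical. Counting the main chromosomes alone, the control lists held 34045 to 41475 peaks and the HADA lists 44044 to 45799, and the genome-wide background pileup that stands for depth ran from 1.69 to 2.05 in the control group and from 1.99 to 2.34 in the HADA group.

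NRF2 and NRF1 are basic leucine zipper transcription factors that bind antioxidant response elements as dimers with a small Maf protein and switch on genes for glutathione synthesis, iron handling and detoxification. NF-E2 p45, the product of Nfe2, pairs with the same small Mafs and is best known for its role in the formation of platelets. Keap1 holds NRF2 for ubiquitination by the Cul3 ligase, Bach1 pairs with small Mafs to repress the same elements until heme displaces it, and the adaptor p62, the product of Sqstm1, can bind Keap1 and release NRF2.

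The letters of the antioxidant response element core (TGACNNNGC, on either strand) were found within 100 bp of the summit in 5 of the 28 regions and in 8.15% of all regions. The NF-E2 site (GCTGANTCA) was found in 1 of the 28 and in 0.921% of all regions. The AP-1 core (TGANTCA), which lies inside the NF-E2 site, was found in 3 of the 28 and in 5.65% of all regions. The matches to the first 2 motifs are printed to show which regions of these genes hold the letters. Any base was allowed at N, and the Bach1 match to the NF-E2 site has an A there. They are read in the strand of the match, with the match in capitals and 10 bases on each side, from GRCm39, at chr2:75528666-75528694 in an intron of Nfe2l2, chr15:103163639-103163667 near a start of Nfe2, chr1:80318643-80318671 at the Cul3 start, chr5:139777268-139777296 at the Mafk start, chr15:79241720-79241748 in an exon of Maff, and chr16:87521892-87521920 in an intron of Bach1. The Nfe2, Cul3 and Mafk matches lie on the minus strand and the others on the plus strand.
Nfe2l2 intron, antioxidant response element core: ttagtcacagTGACACAGCcctaacactc
Nfe2 near a start, antioxidant response element core: gtgtcagctcTGACCCAGCctctcaggga
Cul3 start, antioxidant response element core: cccagggcgcTGACTACGCccattcctta
Mafk start, antioxidant response element core: tccccagtacTGACACCGCttccgggatc
Maff exon, antioxidant response element core: gcggaggaggTGACGCGGCtgaagcagcg
Bach1 intron, NF-E2 site: tcagtgctctGCTGAATCAgtttccccac

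The AP-1 core stood at the Bach1 start, in the Bach1 intron region with the NF-E2 site and in an intron region of Nfe2l2. The start of Nfe2l2 held none of the 3 motifs within 100 bp of its summit. Windows of 201 bp at the members' summits near starts had a median GC content of 66.7%, against 49.8% over all regions, and the share of regions with these letters was not adjusted for base composition. A match shows that the letters are there and not that a factor was bound.

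No region of the 10 genes rose and 4 fell in HADA among the 17 tested, in a limma fit over all 23970 regions present in every library with Benjamini-Hochberg adjustment. The fit used the log2 summit pileup (the number of fragments stacked at the summit) centred on the median region of each library, and 0 of the 17 were higher and 4 lower at an unadjusted p under 0.05 as well. Over all tested regions, 17.9% were called higher in HADA and 24.1% were called lower. The 4 regions that fell were the start region of Nfe2, a start region and a second region of Mafg, and an intron region of Bach1. The median log2 difference, HADA minus control, was -0.28 over the 17 tested regions and -0.04 over all tested regions. When pileups were divided by the library's background instead of centred, the median was 0.10 over the 17 and 0.34 over all regions. The share of calls that were higher, over all regions, was 42.7% on the centred scale and 62.8% on the scale of the library background, so a direction near 0 depends on the scale, and the directions given below are for the centred scale unless stated. Over the library background the pileups of the groups did not overlap in 4 of the 17 regions with HADA higher, against 42.6% of all tested regions, and in 3 of the 17 with HADA lower, against 17.4%. On the centred scale these counts were 0 and 4, against 29.3% and 31.2%. In bulk cells, fewer cells of a type and less accessible chromatin in each cell cannot be told apart.

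Grouped by role, 1 of 5 tested regions of the activators (Nfe2l2, Nfe2l1, Nfe2) fell, with a median log2 difference of 0.06. Of the repressors (Keap1, Cul3, Bach1), 1 of 6 tested regions fell and the median was -0.13. Of the small Maf partners (Mafg, Mafk, Maff), 2 of 5 fell, both in Mafg, where the summits of the groups lay 650 and 918 bp apart. All 5 differences of the small Mafs were negative, as were 12495 of the 23970 differences over all tested regions, and the median was -0.38. With 5 or 6 tested regions a role, these counts were not set apart from the 24.1% of all tested regions called lower. On the scale of the library background the medians were 0.43 for the activators, 0.24 for the repressors and -0.00 for the small Mafs. The activators did not share a direction, since the region of Nfe2 differed by -1.14 and those of Nfe2l1 by 0.24 and 0.41 on the log2 scale.

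**Figure D1:**
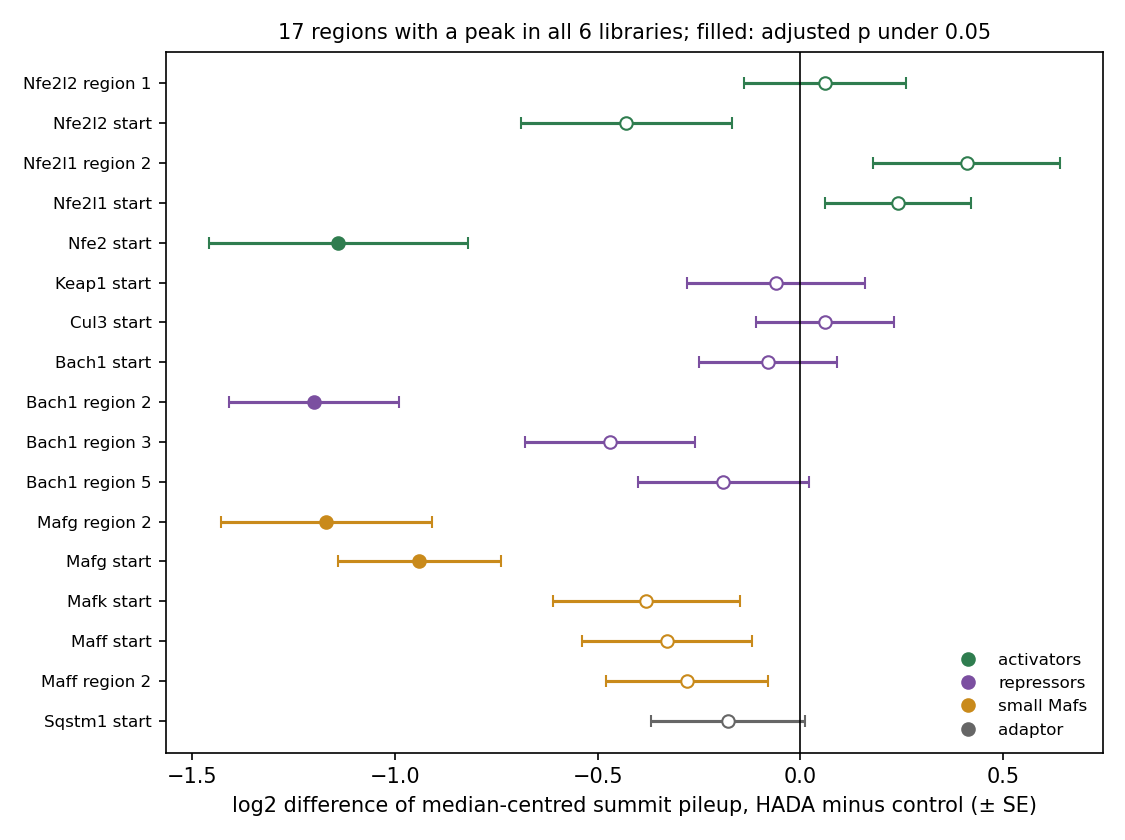
Log2 difference of the median-centred summit pileup (HADA minus control, horizontal axis) for the 17 regions of the 10 genes with a peak in all 6 libraries, with bars of 1 standard error from limma and colours for the role of the gene. The 4 filled points, from -1.20 to -0.94, passed the test, and 13 of the 17 differences lie below 0. Regions other than the start regions are numbered in the order of their genome coordinates within a gene.

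Among the activators, Nfe2l2, the gene of NRF2, held the most regions, 6 on chromosome 2, of which 2 were in all 6 libraries. Its start region (chr2:75533819-75535639) had the highest mean level of the 10 genes over the 6 libraries, although that of Nfe2l1 was taller in HADA 2 and 3. The summit pileups at the Nfe2l2 start were 439, 337 and 586 in control against 642, 452 and 444 in HADA. Divided by the background of each library, these levels were 248 ± 78.8 in control and 232 ± 39.8 in HADA (SD, n = 3 each, exact permutation p = 0.8), and the groups overlapped. The centred log2 difference of -0.43 (SE 0.26) did not pass the test (limma adjusted p = 0.208).

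The summit of the Nfe2l2 start region sat at a different place in the 2 groups. It lay 320, 326 and 321 bp inside the gene from its 5′ end in the control libraries and 253, 203 and 249 bp inside in the HADA libraries, so every HADA summit was closer to the 5′ end. The gap between the groups was 67 bp. Summits lay at least 50 bp apart between groups in 3 of the 17 tested regions of the 10 genes, and in 4.26% of all tested regions.

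An intron region of Nfe2l2 (chr2:75519638-75520617), with summits 14847 to 14966 bp inside the gene from its 5′ end, was listed in all 3 HADA libraries and in no control library. Its pileups were 64, 39 and 55, or 27.3, 19.6 and 24.2 times the library background. It was 1 of the 28 regions with this pattern, which 7.01% of all regions showed, and 0 of the 28 were listed in all control libraries and no HADA library, against 1.88% of all regions. In control 1, 2 and 3, peaks with a local background like that of the nearest peak, 4048 to 4094 bp away, were listed from 17.2, 12.2 and 22.4 times the library background. The levels in HADA 1 and 3 were above all 3 of these values. That in HADA 2 was below the one for control 3, so by this limit a peak of that height in control 3 could have gone unlisted. The local background at the region itself was 10.8, 8.27 and 8.26 in HADA 1, 2 and 3, against 23.4 at the neighbouring region in HADA 1. These limits may therefore be too high for this site. The limits at a like local background given below are also taken from the nearest peak. The sequence at this summit is printed because it is the only part of the 10 genes listed in HADA alone in this way. It is the plus strand of chr2:75520022-75520222 (GRCm39), with the 11 bases at the summit in capitals, and it holds none of the 3 motifs.
Nfe2l2 intron summit: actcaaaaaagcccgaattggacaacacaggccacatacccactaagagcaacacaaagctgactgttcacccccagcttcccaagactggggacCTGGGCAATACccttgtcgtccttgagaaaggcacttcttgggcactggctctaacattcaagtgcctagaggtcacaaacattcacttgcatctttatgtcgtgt

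The other regions of Nfe2l2 did not share a direction. The intron region farthest from the start (chr2:75513015-75513913) had pileups of 100, 93 and 122 in control and 204, 149 and 154 in HADA. Over the library background it was 57.1 ± 10.9 in control and 76.6 ± 9.84 in HADA (exact permutation p = 0.1, the smallest that 3 against 3 can give), with no overlap. After centring, the log2 difference was 0.06 (SE 0.20, limma adjusted p = 0.84), against a median of -0.04 over all tested regions on that scale. By the rank of the deposited fold, which is relative to local background, the difference was 0.84 normal scores (limma adjusted p = 0.0329), and leaving out control 1, control 2 or HADA 1 turned the centred difference to between -0.04 and -0.01.

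The neighbouring intron region (chr2:75515681-75516463), which holds an AP-1 core, had pileups of 103, 89 and 201 in control and 83 in HADA 1, and was not listed in HADA 2 and 3. The smallest listed pileups at a like local background were 31 in HADA 2 and 28 in HADA 3. The intron region with the antioxidant response element core (chr2:75528266-75528784) had pileups of 45 and 76 in control 1 and 3 and of 36, 23 and 25 in the HADA libraries, and was not listed in control 2. The remaining region was listed in HADA 1 alone, with a pileup of 18. With all 6 libraries these 3 regions had no test, since a library without a peak gives no value. The region with the antioxidant response element core was tested when control 2 was left out, and was then lower in HADA (log2 -1.73, SE 0.31, limma adjusted p = 0.0156), a call that rests on 2 control libraries.

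**Figure D2:**
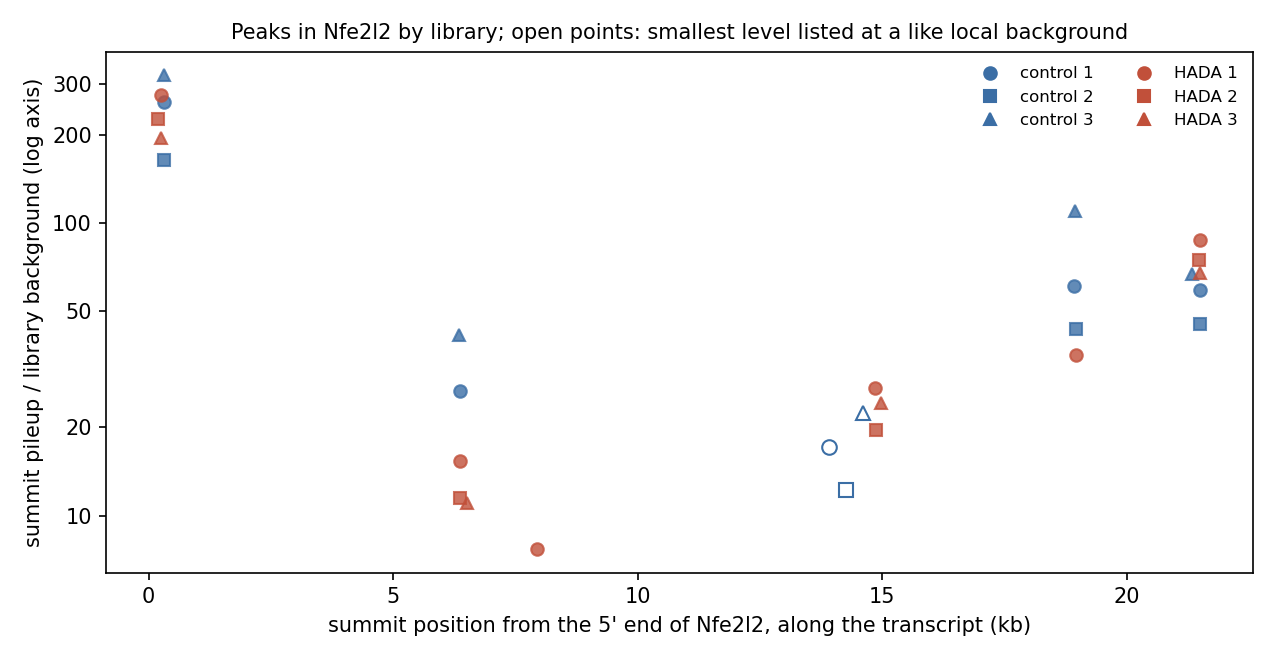
Summit pileup divided by the library background (vertical log axis) against the distance of the summit from the 5′ end of Nfe2l2 in kb, with filled points for the peaks of each library. The 3 HADA points at 14847 to 14966 bp, from 19.6 to 27.3, have no control counterpart. The open points beside them, drawn a little to the left for clarity, run from 12.2 to 22.4. They mark the smallest level a control library listed at a local background like that of its nearest peak.

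Nfe2l1 encodes NRF1, which drives proteasome genes when proteasome activity is low. Its start region (chr11:96720323-96721475) had pileups of 318, 290 and 359 in control and 634, 562 and 565 in HADA, with every HADA library above every control library. Relative to the library background these were 175 ± 29.8 and 267 ± 17.2 (exact permutation p = 0.1). The centred log2 difference of 0.24 (SE 0.18) did not pass the test (limma adjusted p = 0.311), although quantile normalisation gave 0.50 (limma adjusted p = 0.0273).

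A second region of Nfe2l1 (chr11:96714404-96715351), at an internal start, had pileups of 69, 37 and 45 in control and 106, 95 and 99 in HADA. Its centred log2 difference was 0.41 (SE 0.23, limma adjusted p = 0.17), and over the library background it was 0.79 (limma adjusted p = 0.0209). A further region was listed in HADA 1 and 2 alone, with pileups of 36 and 23.

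Nfe2 was the activator whose accessibility fell. Its tallest region (chr15:103166355-103167199) covers the most upstream annotated start, and had pileups of 144, 131 and 252 in control and 166, 99 and 99 in HADA. The centred log2 values were 1.31, 1.25 and 2.36 in control against 0.85, 0.36 and 0.29 in HADA, so the groups did not overlap on that scale. The centred log2 difference was -1.14 (SE 0.32, limma adjusted p = 0.0261). Over the library background the levels were 85.3, 63.8 and 138 in control against 70.9, 49.7 and 43.5 in HADA (95.6 ± 38 against 54.7 ± 14.4, exact permutation p = 0.2), and there HADA 1 lay above control 2, while the limma call held on that scale (log2 -0.76, limma adjusted p = 0.0264). The call was lost without HADA 2 (log2 -1.06, limma adjusted p = 0.0884), without HADA 3 (-1.01, 0.0847) and by the rank of the fold (-0.25 normal scores, 0.328).

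The other regions of Nfe2 had smaller pileups than the tallest region in both groups and were not listed in every library. The region at an inner annotated start (chr15:103163287-103163964), with the antioxidant response element core printed above, had pileups of 60 and 54 in control 1 and 3 and of 63, 59 and 64 in HADA, and was not listed in control 2. When control 2 was left out, this region was tested and did not pass (log2 -0.51, SE 0.17, limma adjusted p = 0.0515). The region farthest downstream (chr15:103161155-103161621) was listed in control 2 and 3, with pileups of 28 and 40, and in no HADA library. The smallest pileups listed at a like local background in HADA 1, 2 and 3 were 33, 26 and 28, so a HADA peak as low as that of control 2 could have been missed in HADA 1. The sequence at the summit of the region that fell is the plus strand of chr15:103166810-103166924 (GRCm39), which runs from 14 bases inside the gene side of the summit to 100 bases upstream, with the 11 bases at the summit in capitals. It is shown because it marks the start at which NF-E2 accessibility was lower, and the 201 bp window around it held none of the 3 motifs.
Nfe2 start summit: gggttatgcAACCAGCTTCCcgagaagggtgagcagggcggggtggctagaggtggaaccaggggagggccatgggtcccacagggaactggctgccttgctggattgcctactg

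Markers of blood cell types moved in the same libraries. Of 10 neutrophil markers, 3 had a tested start region and all 3 were lower in HADA, S100a8 by a log2 difference of -2.31 (limma adjusted p = 0.0109), Cxcr2 by -1.85 (0.0117) and Csf3r by -1.44 (0.012). The summed level of the 8 start regions listed in any library, in multiples of the library background and with unlisted peaks left out, ran from 138 to 363 in control and from 27.7 to 88.9 in HADA. No peak was listed at Camp and Ngp, and the start region of Ltf was listed in control 3 alone, with a pileup of 16. Of 8 monocyte markers, 6 were tested and all 6 were lower, and the 4 with the smallest p were Cd14 (log2 -1.92, limma adjusted p = 0.00805), Cx3cr1 (-1.11, 0.00914), Treml4 (-1.72, 0.00951) and Fcgr1 (-1.13, 0.0114). The 2 untested ones leaned the other way, since Ly6c2 had pileups of 40 and 30 in control 1 and 2 and of 98, 81 and 76 in HADA, and Ccr2 was listed in HADA 1 and 2 alone, with 15 and 28. Over all 8, the summed level ran from 154 to 230.4 in control and from 106 to 151 in HADA. Of 10 B cell markers, 3 were tested and all 3 were higher, namely Cd79b (log2 1.50, limma adjusted p = 0.00954), Pax5 (2.02, 0.0115) and Ms4a1 (1.97, 0.0234), and the sum over all 10 ran from 20.8 to 212 in control and from 519.8 to 589 in HADA. Of 10 T cell markers, 7 were tested and 2 were higher, Lef1 (log2 1.30, limma adjusted p = 0.00789) and Cd3e (0.55, 0.0335). The sums over 9 listed T cell start regions ran from 252 to 331 in control and from 422 to 471 in HADA. Of the tested T cell markers without a call, Cd3d had a log2 difference of -0.31 (limma adjusted p = 0.329), while those of Cd5, Lck, Tcf7 and Cd4 were positive. For comparison, 17.9% of all tested regions were called higher and 24.1% lower. Over the library background, 42.6% of them had no overlap with HADA higher and 17.4% with HADA lower. The part of these cell types in the fall at Nfe2, Mafg and Bach1 was not tested.

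Among 10 platelet and erythroid markers, which bear on Nfe2 because NF-E2 acts in these lineages, 2 had a tested start region. Klf1, an erythroid factor, was higher in HADA (log2 0.64, limma adjusted p = 0.0194) and Itga2b, an integrin of platelets, had a log2 difference of 0.32 (limma adjusted p = 0.248). The summed level of the 5 listed start regions ran from 76.5 to 90 in control and from 158 to 194 in HADA and was higher in every HADA library. No peak was listed at Ppbp, Gp1ba, Gp9 or Alas2, and the start regions of Pf4 and Gata1 were listed in HADA 3 alone.

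Among the repressors, no start region was called. Keap1, the sensor that hands NRF2 to the ligase, had its only region at its start (chr9:21149738-21150924), with pileups of 193, 151 and 213 in control and 349, 228 and 252 in HADA, and a centred log2 difference of -0.06 (SE 0.22, limma adjusted p = 0.835). Cul3, the scaffold of that ligase, had pileups of 256, 237 and 258 in control and 478, 363 and 375 in HADA at its start (chr1:80317946-80319088), and a centred log2 difference of 0.06 (SE 0.17, limma adjusted p = 0.79). Relative to background, Cul3 was 136 ± 18.6 in control and 184 ± 19.7 in HADA with no overlap (exact permutation p = 0.1), while Keap1 overlapped (101 ± 24.2 against 125 ± 21.1, p = 0.5). An intron peak of Cul3 was listed in control 3 alone, with a pileup of 24.

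Bach1, the repressor released by heme, had 5 regions, 4 of them in all libraries. Its start region (chr16:87495412-87497198), which holds an AP-1 core, had pileups of 186, 161 and 188 in control and 290, 246 and 247 in HADA, with a centred log2 difference of -0.08 (SE 0.17, limma adjusted p = 0.736). An intron region with summits 7212 to 7334 bp inside the gene (chr16:87502749-87503329) fell. Its pileups were 25, 26 and 29 in control against 16, 18 and 20 in HADA, the groups did not overlap, and the centred log2 difference was -1.20 (SE 0.21, limma adjusted p = 0.00965). Over the library background it was 14.4 ± 1.63 in control and 8.22 ± 1.21 in HADA (exact permutation p = 0.1). This call held in all 13 alternatives in which the region was tested, with log2 differences from -1.40 to -0.78 and adjusted p-values up to 0.0446. Its pileups were among the lowest of the 17 tested regions.

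Within Bach1, the lower intron region thus stood beside a start region that was not called. The next intron region (chr16:87509838-87510671) had pileups of 79, 49 and 64 in control and 83, 65 and 63 in HADA (log2 -0.47, SE 0.21, limma adjusted p = 0.0991), and the one after it (chr16:87522745-87523492) had 30, 22 and 27 against 32, 37 and 37 (log2 -0.19, SE 0.21, limma adjusted p = 0.475). The intron region with the NF-E2 site was listed in control 3 alone, with a pileup of 20, and the smallest pileups listed at a like local background in the other libraries were 12 and 13. The sequence at the summit of the region that fell is the plus strand of chr16:87503006-87503206 (GRCm39), with the 11 bases at the summit in capitals, and is shown because its call held under every alternative in which it was tested. It holds none of the 3 motifs.
Bach1 intron summit: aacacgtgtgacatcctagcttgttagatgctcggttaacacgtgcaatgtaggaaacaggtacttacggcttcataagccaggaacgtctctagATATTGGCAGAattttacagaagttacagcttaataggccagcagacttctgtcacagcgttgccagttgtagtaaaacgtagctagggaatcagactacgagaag

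Among the small Mafs, which have no activation domain and form the DNA-binding partner of both activators and Bach1, the 2 calls were both in Mafg. Its start region (chr11:120523485-120524859) had pileups of 138, 110 and 153 in control and 119, 99 and 102 in HADA. Over the library background it was 73 ± 16.8 in control and 48.5 ± 3.18 in HADA with no overlap (exact permutation p = 0.1), and the centred log2 difference was -0.94 (SE 0.20, limma adjusted p = 0.0126). The second region (chr11:120520381-120522013) had pileups of 128, 106 and 165 in control and 119, 87 and 69 in HADA, with a centred log2 difference of -1.17 (SE 0.26, limma adjusted p = 0.0137). The second region was 72.5 ± 19.5 times the library background in control and 41.6 ± 10.4 times in HADA, again with no overlap.

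The tallest point of both Mafg regions sat at different places in the groups. In the start region the control summits lay 913, 909 and 869 bp inside the gene from its 5′ end, while the HADA summits lay 78, 49 and 63 bp upstream of it, and 36, 7 and 21 bp from a start of the antisense long noncoding RNA Gm17586. The gap of 918 bp was matched or passed by 0.221% of the 23970 tested regions. In the second region the control summits lay 3315, 3237 and 3311 bp inside the gene and the HADA summits 4010, 4038 and 3965 bp inside, a gap of 650 bp that 0.367% of tested regions matched or passed. The pileups of Mafg are therefore heights of different points within a joined region. Among regions whose summits lay within 250 bp in all libraries, a condition chosen after the data were seen, 14 of the 17 regions remained and 2 were called lower, those of Nfe2 and Bach1, while 18.9% of all 16901 regions under that condition were called lower and 19.6% higher.

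Without HADA 2 both Mafg calls were lost with little change in size, at a log2 difference of -0.93 (limma adjusted p = 0.0531) for the start region and -1.20 (0.0522) for the second region. On the scale of the library background the start region was at -0.56 (0.105). By the rank of the deposited fold the start region was 0.34 normal scores higher in HADA (limma adjusted p = 0.156). A further region (chr11:120518650-120519095) was listed in all 3 HADA libraries, with pileups of 214, 158 and 169, and in control 2, with 128. The sequences at the median summit of each group are printed to show the letters at each place. Different places differ in letters, so that difference is no result about the groups. They are the plus strand of chr11:120523607-120523635 for control and chr11:120524543-120524643 for HADA (GRCm39), with the 11 bases at the summit in capitals. The median HADA summit, that of HADA 3, lies inside an antioxidant response element core, and the summits of HADA 1 and 2 lie outside it. The core is printed as the last line with its 9 letters in capitals (chr11:120524577-120524605), while the window of 100 bp on each side of the control summit holds none.
Mafg control summit: cccctgcaaTGCCTCCTTCGgagcctttg
Mafg HADA summit: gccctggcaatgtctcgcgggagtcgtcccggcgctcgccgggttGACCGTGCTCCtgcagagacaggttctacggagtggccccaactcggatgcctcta
Mafg HADA summit, antioxidant response element core: ctcgccgggtTGACCGTGCtcctgcagag

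This core at Mafg is not among the 5 regions counted above, because the median summit of that region falls between the summits of the groups and its window reaches neither.

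**Figure D3:**
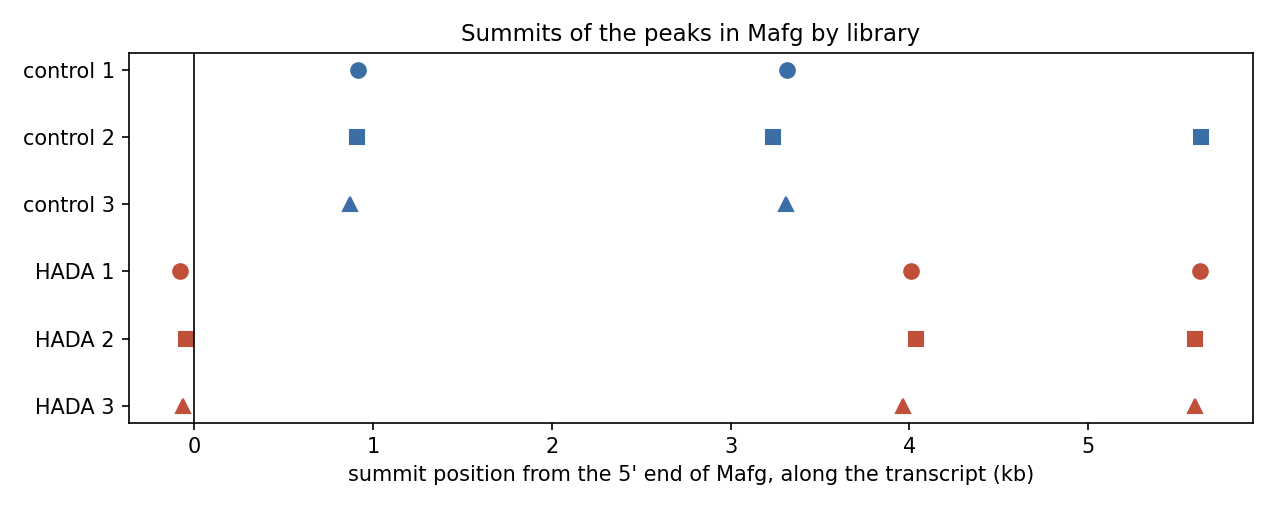
Position of each peak summit in Mafg, in kb from the 5′ end of the gene along the transcript (horizontal axis), with a row for each library. The control summits at 869 to 913 bp and at 3237 to 3315 bp and the HADA summits 49 to 78 bp upstream of 0 and at 3965 to 4038 bp belong to the same joined regions, and the summits at 5595 to 5633 bp were listed in control 2 and all HADA libraries.

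Mafk and Maff had no call. The start region of Mafk (chr5:139776895-139778197), with an antioxidant response element core, had pileups of 276, 220 and 336 in control and 387, 279 and 314 in HADA (log2 -0.38, SE 0.23, limma adjusted p = 0.2). The start region of Maff (chr15:79231307-79232820) had pileups of 225, 176 and 250 in control and 305, 235 and 254 in HADA (log2 -0.33, SE 0.21, limma adjusted p = 0.219). The exon region of Maff with the antioxidant response element core (chr15:79241017-79242175) had 66, 59 and 76 in control and 94, 69 and 93 in HADA (log2 -0.28, SE 0.20, limma adjusted p = 0.286). The groups overlapped at all 3 regions over the library background, and there the 2 Maff differences were positive. A narrow second region of Mafk was listed in control 2 and 3 and in HADA 1 and 2, with pileups of 87, 107, 127 and 117.

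The adaptor gene Sqstm1 had 1 region (chr11:50100698-50101894), with summits 6392 to 6453 bp inside the gene from its 5′ end, at an internal start and 450 bp from a start of Mgat4b, so that it cannot be assigned to Sqstm1 alone. The start regions of Cul3, Nfe2l1, Mafg, Maff and Nfe2l2 had their median summits 4, 132, 164, 190 and 259 bp from a start of a long noncoding RNA, and the same holds for them. Its pileups were 356, 326 and 380 in control against 629, 416 and 422 in HADA. The centred log2 difference was -0.18 (SE 0.19, limma adjusted p = 0.465), and over the library background the groups overlapped (192 ± 29.2 against 221 ± 42.9, exact permutation p = 0.5).

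The start regions of the 10 genes were ordered by level. The mean over the 6 libraries, in multiples of the library background, was 240.2 for Nfe2l2, 221 for Nfe2l1, 207 for Sqstm1, 159.9 for Cul3, 149.6 for Mafk, 119 for Maff, 113 for Keap1, 108 for Bach1, 75.2 for Nfe2 and 60.7 for Mafg. Most neighbours in this order overlapped within each group. The separated neighbours were Sqstm1 above Cul3 in the control libraries, and Mafk above Maff and Bach1 above Nfe2 in the HADA libraries. Compared within each library, Nfe2l2 was above Nfe2l1 in all 3 control libraries and in 1 of the 3 HADA libraries. Sqstm1, Mafk, Maff and Nfe2 were also above the next gene in all 3 control libraries. In all 3 HADA libraries this held for Nfe2l1, Sqstm1, Cul3, Mafk and Bach1.

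**Figure D4:**
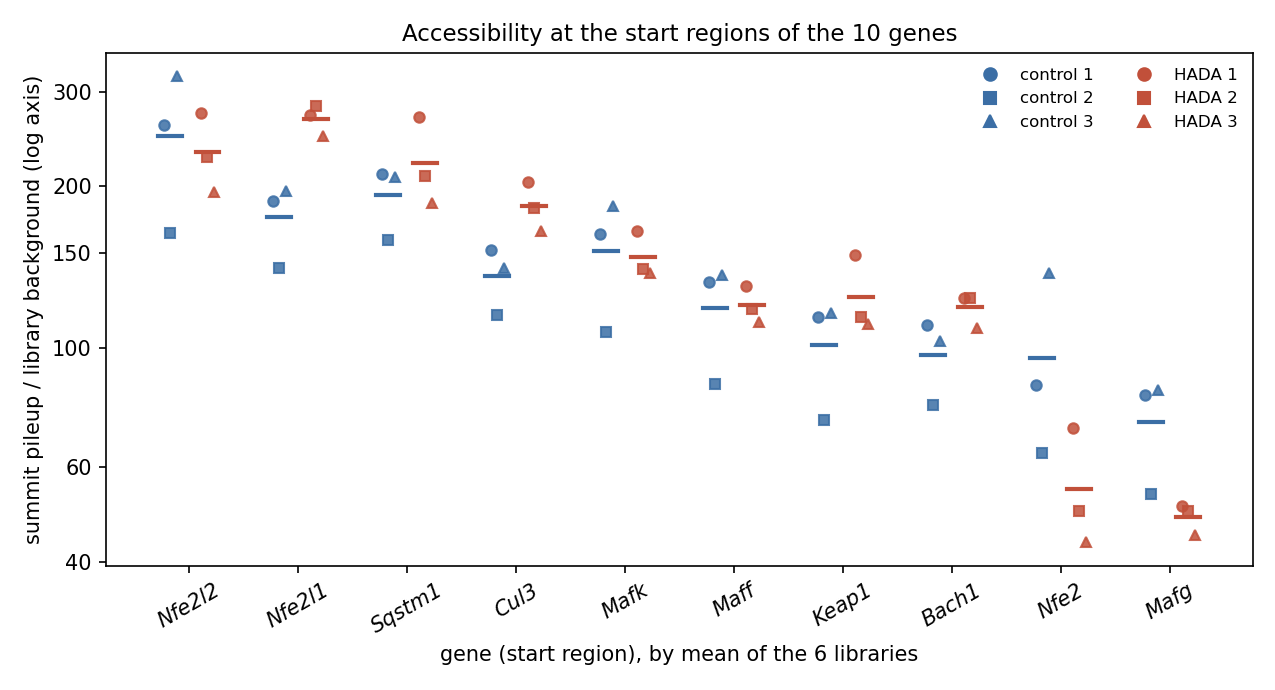
Summit pileup divided by the library background (vertical log axis) at the start region of each gene, in order of the mean over the 6 libraries, with points for the libraries and bars for the group means. All 3 HADA points lie above the control points at Nfe2l1 and Cul3 and below them at Mafg, while those of Nfe2l2, from 195 to 274, lie inside the control range. On this scale 42.6% of all tested regions had no overlap with HADA higher, and 17.4% with HADA lower.

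Ratios between start regions of the same library need no scaling between libraries. Of the 45 pairs of the 10 genes, 31 had ratios that did not overlap between groups, which is 68.9%, against 56.5% of all pairs of start regions of protein-coding genes, so such ratios were common in these libraries. The pileup at the Keap1 start was 0.44, 0.448 and 0.363 times that of Nfe2l2 in control and 0.544, 0.504 and 0.568 times in HADA (0.417 ± 0.0466 against 0.539 ± 0.0319, exact permutation p = 0.1), higher in every HADA library. The ratio of Nfe2l1 to Nfe2l2 was 0.724, 0.861 and 0.613 in control and 0.988, 1.24 and 1.27 in HADA, so that the taller start region was that of Nfe2l2 in all control libraries and that of Nfe2l1 in HADA 2 and 3. The ratio of Nfe2 to Nfe2l2 was 0.382 ± 0.0513 in control and 0.234 ± 0.0218 in HADA, with no overlap.

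Mafg and Nfe2 stood lowest in these ratios. Each was lower in HADA against 8 of its 9 partners, and the remaining pair, Mafg to Nfe2, overlapped (0.802 ± 0.179 against 0.916 ± 0.173, exact permutation p = 0.5). The ratio of Mafg to Nfe2l1 was 0.434, 0.379 and 0.426 in control and 0.188, 0.176 and 0.181 in HADA. Nfe2l1 and Cul3 were each higher in HADA against 7 partners, and the ratio of Cul3 to Nfe2l1 overlapped.

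**Figure D5:**
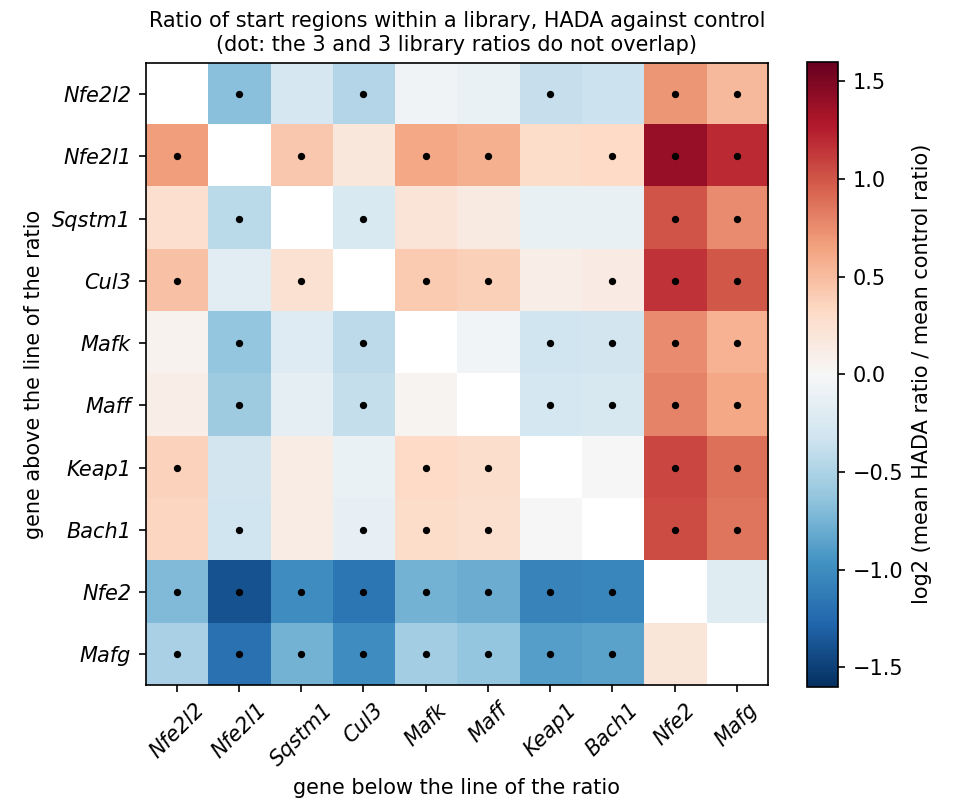
Log2 of the mean HADA ratio over the mean control ratio for each pair of start regions, with the gene of the row above the line and the gene of the column below it, entries below the diagonal mirroring those above, and dots where the library ratios did not overlap between groups. The rows of Nfe2 and Mafg are negative against all 8 genes other than each other.

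The start regions whose pattern over the 6 libraries was most like that of a member were found among 9963 start regions by the root mean square difference of centred log2 pileups after the mean of each region was removed. For Nfe2l2 the nearest were Mrps15 (0.027), Tmbim6 (0.029), the region shared by Eef1d and Tigd5 (0.032), the region shared by Naif1 and Slc25a25 (0.032) and Ankrd33b (0.035), with log2 differences from -0.47 to -0.37. For Nfe2 the nearest were S100a11 (0.063), Evi2 (0.065), Glyctk (0.075), Zbtb7b (0.081) and Spi1 (0.087), with log2 differences from -1.19 to -1.01. A difference close to that of the member follows from this choice and is no result. Spi1 encodes PU.1, a factor of myeloid and B cells.

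Among other regulators of the pathway, Bach2 rose and Rxra fell. Of 14 genes, among them ligase subunits, a kinase, coactivators and a nuclear receptor that act on NRF2, 13 had a tested start region, with 1 higher and 1 lower (7.69% each, against 17.9% and 24.1% of all tested regions) and a median log2 difference of -0.19. At an unadjusted p under 0.05, 3 were higher and 3 lower. Rxra, a nuclear receptor that can bind and restrain NRF2, had pileups of 54, 56 and 79 in control and 44, 34 and 27 in HADA (log2 -1.48, SE 0.26, limma adjusted p = 0.00943). Bach2, the relative of Bach1 that is prominent in B and T cells, had 142, 94 and 40 in control and 380, 360 and 336 in HADA (log2 1.52, SE 0.37, limma adjusted p = 0.0167). The B cell sums given above were higher in the same libraries, control 3 was the lowest library for both, and their part in the difference at Bach2 was not tested. Nfe2l3, a further relative of NRF2, had pileups of 15 and 9 in control 1 and 2 and of 30, 31 and 32 in HADA. It was not listed in control 3, and without that library its log2 difference was 0.81 (SE 0.23, limma adjusted p = 0.0334).

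Of 16 known target genes of NRF2, 15 had a tested start region, 4 fell (26.7%, against 24.1% of all tested regions), none rose (against 17.9%), and the median log2 difference was -0.44. At an unadjusted p under 0.05, 5 were lower, Gclm in addition to those 4, and 1, Prdx1, was higher. Those that fell were Srxn1 (sulfiredoxin, log2 -2.23, SE 0.36, limma adjusted p = 0.00903), Gsr (glutathione reductase, -1.39, SE 0.30, 0.0132), Slc7a11 (the cystine transporter, -1.94, SE 0.44, 0.0143) and Hmox1 (heme oxygenase, -1.11, SE 0.29, 0.0211). Srxn1 had pileups of 184, 175 and 365 in control and 103, 72 and 56 in HADA, and Slc7a11 had 115, 107 and 296 in control and 91, 53 and 49 in HADA. In both genes the groups did not overlap and control 3 was the highest library, as it was for the neutrophil sum, whose part in these falls was not tested. Prdx1, a peroxiredoxin, had the most positive difference of the list (log2 0.50, SE 0.19, limma adjusted p = 0.0595) with pileups of 160, 133 and 96 in control and 307, 277 and 252 in HADA. On the scale of the library background the median of the list was -0.06, against 0.34 over all regions.

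The number of peaks at the 10 genes did not separate the groups. It was 20, 22 and 24 in control and 25, 24 and 21 in HADA (22 ± 2 against 23.3 ± 2.08, exact permutation p = 0.6). Per 10000 peaks of the library it was 5.74 ± 1.17 in control and 5.22 ± 0.559 in HADA (exact permutation p = 0.7).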

How the data were processed

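ATAC-seq peak lists of 3 control and 3 HADA libraries were analysed, with groups and replicate numbers from the labels. Per the submitters' processing notes and the methods, the authors used Trimmomatic for trimming, Bowtie2 for alignment to GRCm39, Picard to drop duplicate reads and MACS2 to call peaks, and each deposited list holds 1 library. Versions, peak-calling options and whether reads were shifted for Tn5 are not given in the sources used here, so summits may lie some bases from insertion sites. The deposited lists give, for each peak, a score, the authors' fold enrichment at the summit (a ratio to local background), a −log10 p-value and a −log10 q-value. The authors' values describe a peak within its own list.

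MACS2 computes the fold as (pileup + 1) / (background + 1) and takes the p-value from the upper tail of a Poisson distribution. The summit pileup and local background were therefore solved from the deposited values, for 100.0% of peaks. The lowest background of a library stands for its depth. Read totals were not analysed here. The smallest pileup listed was 7 to 9, and the narrowest peak 286 to 307 bp. Of 250978 peaks on the 21 main chromosomes, 0 ended past a GRCm39 chromosome. Peaks sharing 1 bp were joined into regions and assigned with the GENCODE annotation of that build. The lists of other genes, the members and their roles were chosen with earlier results of these data known.

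Regions in all 6 libraries were tested with limma 3.58.1 in R 4.3.3 on median-centred log2 pileup, with Benjamini-Hochberg adjustment over all of them at 0.05. For single values an exact permutation test, two-sided, was used (scipy 1.17.1), whose smallest p-value is 0.1. The fit was also run on simulated data with known changes. Noise was drawn there independently for each region, so that run does not bear on differences shared by many regions. The start region of a gene was its tallest region with a summit within 1000 bp of a start, or else 3000 bp. All 10 members are named, with the 5 most like start regions of Nfe2l2 and Nfe2 and up to 4 called genes of each other list by smallest p. Further genes were chosen after their values were seen. These were Itga2b, Prdx1, Gclm, Ly6c2, Ccr2, Nfe2l3, Cd3d, Cd5, Lck, Tcf7 and Cd4. The markers with no peak (Camp, Ngp, Ppbp, Gp1ba, Gp9, Alas2) or with a start region listed in 1 library (Ltf, Pf4, Gata1) were also chosen in this way. Motifs were searched within 100 bp of the median summit of a region. Alternatives were the scale, quantile normalisation, the rank of the fold, thinning, a variance trend, the replicate block, leaving out each library, a −log10 q of at least 5, equal numbers of peaks, stricter joining and starts only. The authors' count matrix was not used here.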

Additional observations from a re-analysis of the deposited data

How the results depend on the processing

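Of the 17 tested regions, the fits with a variance trend, with peaks joined only at 100 bp and with the replicate block changed no call. The correlations of deviations within replicate numbers 1, 2 and 3 of the labels were -0.08, 0.08 and -0.38, so no shared replicate effect was seen. With 3 libraries a group, these values cannot show whether the libraries were collected in pairs. With the replicate block 0 regions of the 10 genes were higher and 4 lower, and over all regions 2991 were higher and 5660 lower, against 4291 and 5769 without it. The count of higher regions of the 10 genes, 0, became 1 over the library background, 1 with quantile normalisation and 1 by the rank of the fold, and ranged from 0 to 1 when 1 library was left out. The count of lower regions, 4, became 2 by the rank of the fold, 2 with equal numbers of peaks and 2 with summits within 250 bp (chosen after the data were seen), and ranged from 1, without HADA 2, to 6, without control 2. Regions of the 10 genes in HADA libraries only became 0 with starts only and ranged from 1 to 2, and those in control libraries only became 1 with equal numbers of peaks and ranged from 0 to 1. Over all regions, higher calls became 7432 over the library background and 1573 by the rank of the fold, where lower calls became 1146. They ranged from 737, without HADA 2, to 4810, and lower calls from 2021, without HADA 2, to 5907. Quantile normalisation put 56.9% of calls higher and the rank of the fold 57.9%. Peaks per gene differed by 0.133 (HADA minus control), by -0.1 with equal numbers of peaks and by 0.0333 to 0.25 with 1 library left out.

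Signs that turned were those of regions without a call, except the Mafg start. Over the library background, the log2 difference was 0.32 at Keap1, 0.30 at the Bach1 start, 0.19 at the last Bach1 region, 0.05 and 0.10 at Maff and 0.19 at Sqstm1. With quantile normalisation it was 0.04 at Keap1, 0.02 and 0.08 at Bach1 and 0.04 at Sqstm1. By the rank of the fold the difference, in normal scores, was -0.09 at Cul3, 0.16 and 0.40 at Bach1, 0.34 at the Mafg start, 0.08 and 0.32 at Maff and 0.02 at Sqstm1. At the first Nfe2l2 region the log2 difference was -0.02 after thinning, and -0.02, -0.04 and -0.01 without control 1, control 2 and HADA 1. At Keap1 the log2 difference ranged from -0.21 to 0.06 with 1 library left out, being 0.06, 0.02 and 0.00 without control 3, HADA 2 and HADA 3. By the rank of the fold Keap1 was at -0.36 normal scores. Calls were gained at the second Nfe2l1 region without control 1 (0.62, limma adjusted p = 0.0462) and at the third Bach1 region without control 2 (-0.66, 0.0262), where the Nfe2l2 region with the antioxidant response element core, untested with all libraries, was also called lower (-1.73, 0.0156). The cause was not tested. A region below the local threshold of a library is not listed, so absence of a peak is not absence of signal, and 3 libraries a group limit what can be called.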
